A study of Chlamydomonas reinhardtii with 2 samples.

Results

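Edge pairs at most 20 nt apart are places where trimmed alignments of several lengths ended on one base and others of several lengths began within a few bases. A right edge was a position at which trimmed alignments (32 nt or less) of 3 or more different lengths ended, and a left edge one at which trimmed alignments of 3 or more lengths began. A pair was a right edge whose next left edge lay 1 to 20 nt further on, in a window of 1 kb with at least 50 and under 3000 reads. Of 30338 right edges in the summed libraries 8124 lay in such windows, and 402 of these (4.95%) formed a pair. The 402 pairs used 269 different left edges, because 200 of them shared a left edge with another pair, and they lay in 174 windows. A member typically rested on few reads, with a median of 5 trimmed reads at the right edge (interquartile range 4 to 10, highest 136) and 5 at the left edge (3 to 9, highest 298). The pairs had been proposed as candidate sites at which the sequence of the cells differs from that of the reference.

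The alga Chlamydomonas reinhardtii, a green unicell, supplied the polyadenylated RNA. Both libraries belong to 1 group: strain 2137 cultured in TAP (Tris, acetate and phosphate) medium whose trace elements followed a revised recipe, at 23 °C, lit without a dark period at some 50 to 90 µmol of photons per second and square metre. Cells came from agar plates with Hutner's trace elements and were diluted 100-fold into fresh medium. Replicate 2 has a strain tag of 2138 although its title names 2137, which was used. Replicate 1 held 5380216 uniquely aligned reads and replicate 2 held 5787626, of which 9.23% and 9.46% were trimmed. Nothing in the labels says whether they came from separate cultures, so p-values between them cover the scatter of these 2 libraries alone, possibly a technical one. Window counts were split between them as counting error splits them (mean chi-square 1.01 per window of 10 or more reads, 1 being the value of pure counting error), and they were counted as 1 sample.

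Vegetative cells of this alga are haploid, so a base of the genome normally has one form in a culture grown from one strain. The reference assembly was made from another laboratory strain, and laboratory strains differ from each other in blocks of sequence spread over the genome. The aligner accepted whole reads with up to 2 mismatches and no inserted or deleted base. A read over a short insertion, a deletion or a cluster of substitutions can therefore fail at full length and be cut back until what remains matches perfectly. Reads over a spliced intron can do the same, with the edges of a given intron its length apart. Whether edges of separate introns form any of these pairs was not tested. Full-length alignments (35 nt) took no part in choosing the pairs and give a second view of each gap: whether whole reads crossed it.

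Whole reads crossed most of the gaps. In 351 of the 402 pairs at least 1 full-length alignment had 8 nt or more on both sides of the gap, counting the edge bases, and in 51 pairs (12.7%, exact 95% Clopper-Pearson interval 9.59 to 16.3%) none had. The 351 crossed gaps had a median of 136 such alignments (interquartile range 41 to 383.5, highest 2105). Relative to the rate of full-length alignments in the 35 nt before and after, the median of the 385 pairs with 10 or more flanking alignments was 99.6% (interquartile range 56.9 to 181%). With pairs called in replicate 1 alone 6.07% were uncrossed and the median was 149.1%, and in replicate 2 alone 5.73% and 148.8%, where the same limits on window reads take in deeper regions. Because whole reads were accepted with up to 2 mismatches, a crossing read does not tell whether every base of the gap matches the reference. The 351 are called crossed pairs here and the 51 others uncrossed pairs, as names for this count alone. Intervals and upper limits in the text cover counting error only, because no molecular identifiers mark which reads stem from one molecule, and members that share an edge or a window are not independent either.

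**Figure D1:**
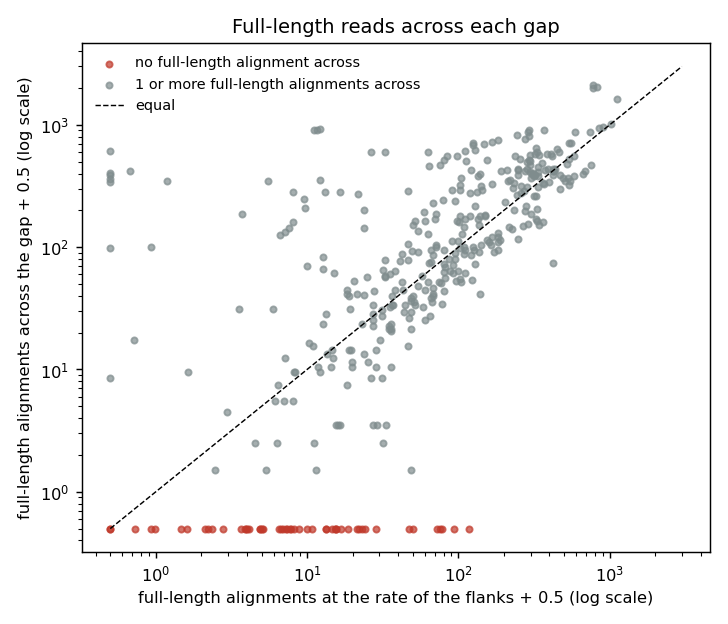
Each point is 1 of the 402 edge pairs. The horizontal axis gives the full-length alignments expected at the rate of the flanks and the vertical axis those counted across the gap, both plus 0.5 on log scales. The 51 uncrossed pairs form the row at the bottom and most of the 351 crossed pairs scatter about the line of equality, up to 2105 alignments.

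Depth limits for how many of the uncrossed pairs the count of 0 can be read. For 30 of the 51 the flanks gave an expectation of 6 or more crossing alignments, with a median of 15 and a highest value of 118. For each of these 30 pairs 3 reads were taken as the upper limit that a count of 0 allows. As a percent of the mean rate of both flanks this limit had a median of 20% and ran from 2.55 to 48.1%. For the other 21 pairs the expectation was below 6, and crossing by a minority of reads was not detectable at this depth. In 11 of the 51 a flank held no full-length alignments, as at 85353507 and 85353518 (0 before and 195 after, expectation 27.9). Whether coverage simply ended at such edges was not tested, and there the limit is not a bound on crossing. In all 51 the crossing count was 0 in both libraries, as it is by definition for the sum. Trimmed alignments, which match perfectly, covered both edge bases in 7 of the 51, against 329 of the 351 crossed pairs.

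The pair with the highest flank expectation had its right edge at 34716965 and its left edge at 34716966, so that no reference base lay between them. Positions run along the scaffolds of assembly version 3.1 joined end to end and are printed as deposited. At the right edge 14 trimmed reads ended in replicate 1 and 16 in replicate 2, of 10 lengths in sum. At the left edge 21 and 27 trimmed reads began, again of 10 lengths. No full-length alignment with 8 nt on each side crossed in either library, where the flanks (227 alignments before and 185 after) gave an expectation of 118. In sum 23 full-length alignments did cover both edge bases, with under 8 nt on one side. Full-length depth in replicate 1 was 30 at 7 nt before the right edge, 15 at the edge itself and 36 at the eighth base from the left edge. Both libraries thus showed the same dip and the same pair of piles.

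**Figure D2:**
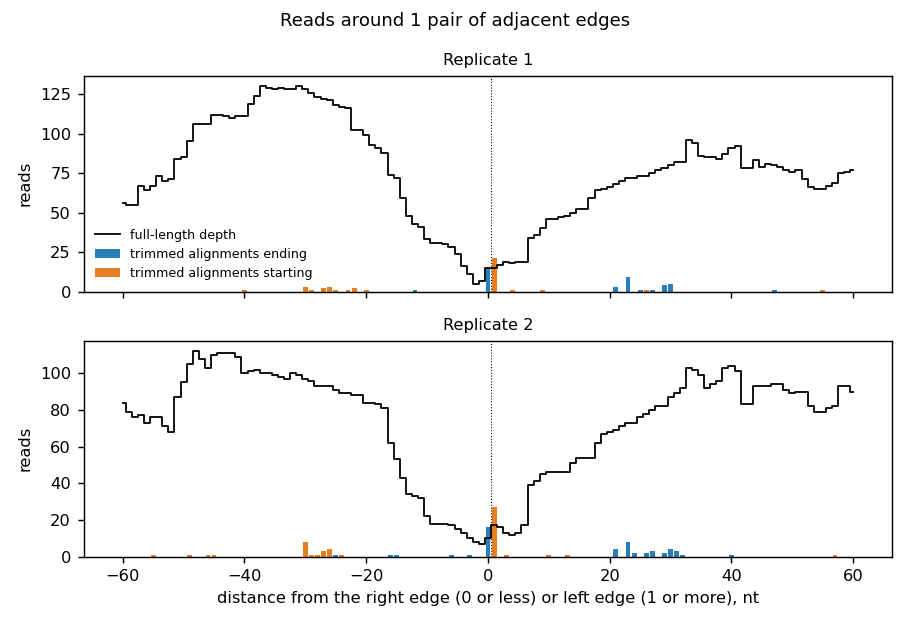
Reads around the adjacent edges at 34716965 and 34716966 in each library. The horizontal axis is the distance in nt from the right edge (0 or less) or the left edge (1 or more), the line is the depth of full-length alignments and the bars are trimmed alignments that end or start at a base. In both libraries depth falls towards the dotted line, where 14 and 16 trimmed alignments end and 21 and 27 start.

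Other uncrossed pairs with high flank expectations are given as further examples, chosen after their values were seen. A second pair of adjacent edges, at 63763709 and 63763710, had 16 and 21 trimmed reads at its right edge in replicates 1 and 2, and 25 and 37 at its left edge. Its flanks held 161 alignments before and 164 after, for an expectation of 92.9, and 2 full-length alignments covered both edge bases. At 87593447 and 87593457, with 9 bases between the edges, 12 and 13 reads ended and 57 and 60 began. The expectation of 71.7 rested mostly on the flank after it (414 alignments, against 42 before), and 0 full-length alignments covered both edge bases. The left edge had reads of 11 of the 12 possible lengths. At 35795990 and 35795992, with 1 base between, 11 and 18 reads ended and 27 and 25 began. Here the expectation of 46.4 rested on the flank before it (159 alignments, against 12 after), and 12 full-length alignments covered both edge bases. In each of these 3 pairs both libraries contributed to both edges.

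Some uncrossed pairs lay side by side. Right edges at 35612101, 35612105 and 35612107 shared the left edge at 35612111, at which 24 and 35 trimmed reads began in replicates 1 and 2. The 3 right edges took 13, 4 and 20 reads in sum. No full-length alignment crossed with 8 nt on each side and 8 covered both edge bases, while 26 trimmed alignments covered the bases from each of these right edges to the left edge, so a part of the reads matched the reference exactly there. In one window, 106245001 to 106246000, the edges at 106245668 and 106245669 (15 and 19 reads ending, 14 and 12 beginning) were followed downstream by a second uncrossed pair at 106245717 and 106245725. That second pair had 19 and 28 reads ending and 7 and 4 beginning. Another right edge at 106245654 shared the left edge of the first. In another window the pairs at 63621796 and 63621809 and at 63621899 and 63621903 had flank expectations of 12.8 and 16.3.

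The depth of full-length alignments fell to a notch at the 30 uncrossed pairs with an expectation of 6 or more. It was set against the depth further out (35 to 69 nt from the edges). The median was 120% at 30 nt before the right edge, 54.7% at 10 nt, and 24.8% at the edge base. On the other side it was 16.5% at the left edge, 42.1% at base 10 from it and 90.9% at base 30. In the 339 of 351 crossed pairs that were profiled the same medians were 137% at 30 nt before, 179% at the right edge and 187% at the left edge. The pairs were split by reads over these same bases, and the 30 were also chosen by their flank expectation. The notch and the contrast between the 2 groups are thus in part fixed by the choice and are given as a description.

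**Figure D3:**
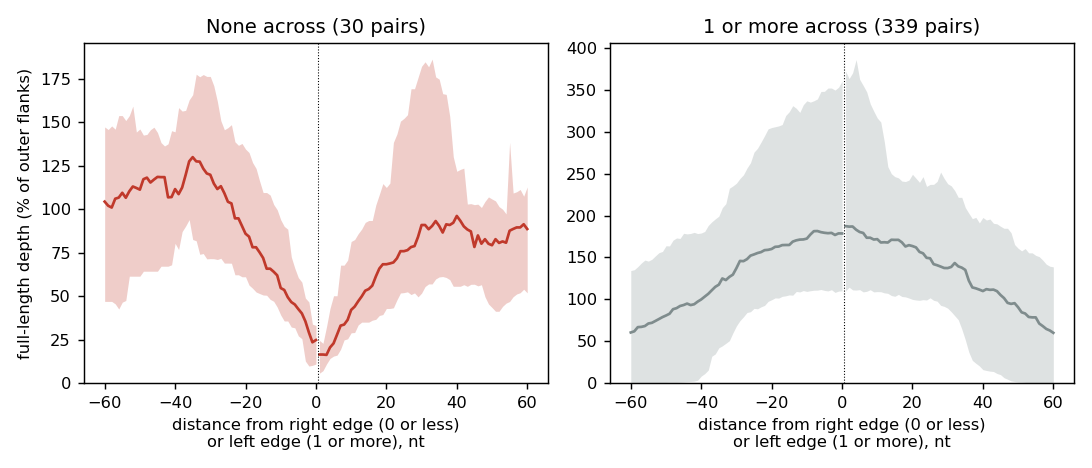
Median depth of full-length alignments (line) and interquartile range (band) by distance in nt from the right edge (0 or less) or left edge (1 or more), as a percent of the depth 35 to 69 nt out. Left, 30 uncrossed pairs, where the median drops to 24.8% at the right edge and 16.5% at the left edge. Right, 339 crossed pairs, where it is 179% at the right edge and 187% at the left edge. The vertical scales differ.

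Whole reads did overhang the uncrossed edges. Overhangs of up to 7 nt are free of the definition, while those that reach 8 nt beyond the far edge are 0 by it and are left out here. At the 30 right edges of these pairs 62 full-length alignments ended exactly on the edge, 146 ended 1 to 3 nt past it and 126 ended 4 to 7 nt past it. At their 28 left edges 54 began on the edge, 135 began 1 to 3 nt before it and 37 began 4 to 7 nt before it. A further 65 ended 8 to 27 nt past the right edges and 54 began 8 to 27 nt before the left edges. These fell short of 8 nt beyond the far edge. In 18 of the 30 pairs at least 1 full-length alignment covered both edge bases. When a read needed only to do this to count as crossing, 27 of 402 pairs (6.72%) stayed uncrossed.

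The gap lengths were spread over the whole range allowed. Adjacent edges, with a gap of 0 bases, were 57 of the 402 pairs (14.2%), and the gap of 1 base followed with 40 and that of 2 bases with 32. The median gap was 6 bases, and 128 pairs (31.8%) had gaps of 10 to 19. Because each right edge was joined to its nearest left edge, short gaps are favoured by construction. Among uncrossed pairs 5 had adjacent edges and 7 a gap of 1 base, and the median gap was 5 bases. Crossed pairs had 52 adjacent edges and 33 gaps of 1 base.

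**Figure D4:**
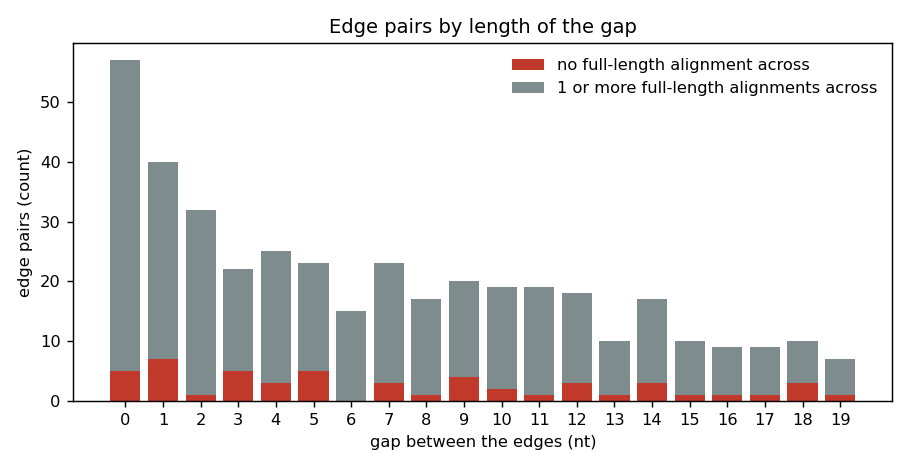
Number of edge pairs by gap between the edges (0 to 19 nt), with uncrossed pairs at the bottom of each bar and crossed pairs above. Counts are highest at a gap of 0 (57 pairs) and fall to 7 at 19; uncrossed pairs number at most 7 at any gap.

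In coding sequence a deletion of a multiple of 3 bases leaves the reading frame intact, so gaps divisible by 3 were counted. Of the 46 uncrossed pairs with a gap above 0, 16 (34.8%, exact interval 21.4 to 50.2%) had a gap that is a multiple of 3. Of the 299 such crossed pairs 79 (26.4%, 21.5 to 31.8%) did. Among the possible gaps of 1 to 19 bases, those of 3, 6, 9, 12, 15 and 18 are multiples of 3. An even spread over these lengths would thus also put many pairs at multiples of 3, and neither share was tested against it. Because pairs that share an edge are not independent, the intervals overlap but cannot decide whether the shares differ. A gap can equal the length of a deletion only at a deletion, and there only where no neighbouring base matches by chance. At an insertion or a cluster of substitutions it says nothing of the reading frame. Which of these, if any, a pair holds was not tested, and whether these pairs lie in coding sequence was not analysed here.

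Uncrossed and crossed pairs lay in windows of unlike depth. Uncrossed pairs made up 16 of the 18 pairs in windows of under 200 reads, 22 of 50 in windows of 200 to under 1000, 6 of 121 in windows of 1000 to under 2000 and 7 of 213 in windows of 2000 to under 3000. The 51 uncrossed pairs lay in windows with a median of 372 reads and the 351 crossed pairs in windows with a median of 2378. Windows of 2000 to under 3000 reads were 215 of the 16840 windows in range (1.28%) and held 213 of the 402 pairs (53.0%). The window limits set this picture in part. The same search found 7 pairs in windows of 2900 to under 3000 reads, 16 in windows of 3000 to under 3100, 14721 in all 558 windows of 3000 reads or more and 2 in windows under 50.

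The share of a window's reads that lay near the pair varied widely. Uncrossed pairs had a median of 29.2% of their window's reads starting between 84 nt before the right edge and 50 nt after the left edge (range 7.29 to 86.7%), and crossed pairs had 68.9% (range 4.07 to 100%). The 51 uncrossed pairs lay in 44 windows and the 351 crossed pairs in 136, and 93 of the crossed pairs lay in 7 windows of 10 or more. The left edge next in line was at most 1000 nt away for 4 of 47 neighbouring left edges of uncrossed pairs and for 96 of 223 of crossed pairs. The 3 stretches of 20 kb with most pairs held 22, 15 and 14 of them, all crossed (another stretch also held 14, and the first along the assembly was taken). The first, at 99380001 to 99400000, had its 22 pairs within 386 nt of one window of 2736 reads, on 8 left edges. The second, at 96680001 to 96700000, had 15 pairs within 2160 nt. The third, at 73580001 to 73600000, had 14 pairs within 47 nt of a window whose reads lay almost wholly beside them (99.3% or more).

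The 10 pairs with the most trimmed reads were all crossed and came from only 2 windows. Of these, 5 lay between 3945016 and 3945028. The largest, 3945022 and 3945028, had 39 and 28 reads ending in replicates 1 and 2 and 138 and 160 beginning. Of the reads at its left edge 99.3% had a single length, 24 nt, so many copies of one alignment made the pile. Full-length alignments crossed it 212 and 211 times, and the flank after it held 0 full-length alignments against 1161 before it. The other 5 lay between 41632045 and 41632057, where 97.0% of the reads at the shared left edge at 41632057 had 1 length, 30 nt. The pair 41632046 and 41632057 there had 51 and 57 reads ending, 94 and 72 beginning, and 202 and 186 crossing.

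Such single-length piles were counted over all pairs. One length made up over 80% of the reads of at least 1 edge in 2 of 51 uncrossed pairs (3.92%, exact interval 0.478 to 13.5%) and in 62 of 351 crossed pairs (17.7%, 13.8 to 22.1%). Edges with many lengths occurred on both sides. Both edges had 6 or more lengths in 14 pairs, of which 7 were uncrossed and 7 crossed by 355 or more full-length alignments each. Both edges had only 3 lengths in 8 uncrossed pairs (15.7%) and 123 crossed pairs (35.0%). The number of lengths belongs to the rule, and these shares are a description.

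The most heavily crossed gaps lay in one window. Adjacent edges at 27766003 and 27766004 were crossed by 967 and 1138 full-length alignments in replicates 1 and 2, while 2 and 5 trimmed reads ended and 19 and 16 began there. The pairs at 27766005 and 27766006 and at 27766004 and 27766006 had 2024 and 2014 crossing alignments in sum. Trimmed alignments that covered both edge bases numbered 565 in the first of these 3 pairs, 637 in the second and 591 in the third.

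Among the gap lengths set for display, the pair with most trimmed reads was crossed in every case. Besides those already given, 58570119 and 58570121 (gap of 1) had 53 and 57 reads ending in replicates 1 and 2, 1 and 2 beginning, and 913 crossing in sum. At 73592983 and 73592990 (gap of 6) 39 and 70 reads ended, 3 and 3 began and 299 crossed. At 99383626 and 99383639 (gap of 12) 44 and 72 ended, 3 and 2 began and 289 crossed. The pair 41632054 and 41632057 (gap of 2) shared the left edge described above, as did 41632047 and 41632057 (gap of 9), and the largest pairs at gaps of 0 and 3 were those at 3945019 and 3945020 and at 3945024 and 3945028. In these pairs one edge carried most of the trimmed reads and the other few.

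Between the extremes lay a few gaps crossed at well below the mean rate of both flanks. Uneven flanks can give such a value without crossing by a minority of reads. At 7067982 and 7067990, for instance, 74 alignments crossed (17.7%) between flanks of 63 before and 2191 after. In 12 of the 340 crossed pairs with 10 or more flanking alignments the crossing rate was under 25% of the flanks, and in 32 it was under 50%. The lowest was at 109008886 and 109008904, with 1 crossing alignment where 48.0 were expected from the flanks, followed by 11343433 and 11343443 with 2 where 31.1 were expected. In 88 of the 340 the rate was over 200% of the flanks.

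Many of the uncrossed pairs lay in a few parts of the assembly. Counted in bins of 1 Mb, 4 of 113 bins held 4 or more uncrossed pairs and together 30 of the 51. The same bins held 15 of the 351 crossed pairs (4.27%) and 603 of the 16840 windows in range (3.58%). In the bin starting at 34 Mb 5 uncrossed pairs spanned 429 kb, from 34289193 to 34718651. In the next bin 13, on 11 left edges in 10 windows, spanned 953 kb, from 35037868 to 35990916. That bin also held 14 of the 15 crossed pairs. In the bin starting at 63 Mb 7 pairs lay within 295 kb, from 63482614 to 63778026, and none of the crossed pairs lay in that bin. In the bin starting at 106 Mb 5 lay within 78.8 kb, from 106176024 to 106254800. A further 8 pairs lay between 99816066 and 101965856. The bins were picked by their counts of uncrossed pairs, so no test is given.

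Trimmed reads as a whole can be set beside these counts. The median trimmed share per window in range was 7.79 to 10.5% in the 4 bins and had a median of 6.06% (range 4.68 to 11%) over the 109 others. The same trimmed alignments enter both measures, and the part of one in the other was not tested. Crossed pairs were spread over 74 bins and uncrossed pairs over 19. At most 23 crossed pairs fell in 1 bin.

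Right edges that had no left edge within 20 nt give a value to set beside the pairs. For a comparison on equal terms only the right edge was used, with 8 nt required on each side of it. No full-length alignment crossed in 37 of 402 pairs (9.20%, exact interval 6.56 to 12.5%), against 5302 of 7722 unpaired right edges of the same range of windows (68.7%, 67.6 to 69.7%). In windows of 50 to under 1000 reads the shares were 32 of 68 (47.1%) in pairs and 4731 of 5794 (81.7%) in unpaired edges. In windows of 1000 to under 3000 reads they were 5 of 334 (1.5%) in pairs and 571 of 1928 (29.6%) in unpaired edges. Edges of one window share their reads and are not replicates, so no test is given. The median window had 2171.5 reads for pairs and 329 for unpaired edges.

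None of the pairs passed a test between the libraries. Under a two-sided exact binomial test of each pair's trimmed reads against the ratio of library totals, adjusted by the Benjamini-Hochberg method over all 27138 pairs of edges 1 to 2000 nt apart, 0 of the 402 pairs passed 0.05, against a background of 0% of all pairs. At an unadjusted p under 0.05 there were 27 of the 402 (6.72%) and 1166 of all 27138 (4.30%). The median pair had 12 trimmed reads over both edges and libraries, and only the 119 pairs (29.6%) with 19 or more could have passed after this adjustment with all reads in one library. The lowest p was at 58570136 and 58570138, with 9 reads in replicate 1 and 30 in replicate 2 (exact binomial p = 0.0019, adjusted p = 0.938). It was followed by 96682057 and 96682060 with 0 and 10 reads (exact binomial p = 0.0021, adjusted p = 0.938) and 5369991 and 5370002 with 10 and 1 (exact binomial p = 0.0049, adjusted p = 0.992). All 3 are crossed pairs. Over the 671 different edges of the members the mean chi-square of the split was 1.07.

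**Figure D5:**
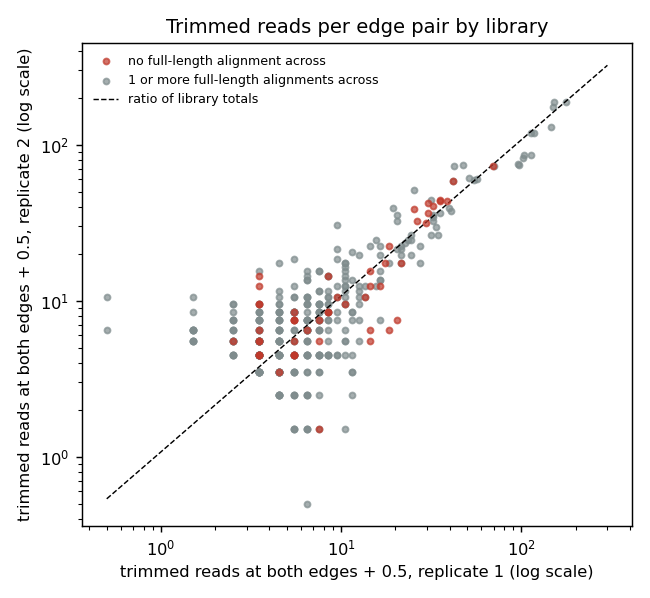
Trimmed reads at both edges of each pair in replicate 1 (horizontal) and replicate 2 (vertical), plus 0.5 on log scales, for uncrossed and crossed pairs. The dashed line is the ratio of library totals. Pairs scatter about it, most widely below 10 reads, and none passed the test.

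Calls made in one library could be looked up in the other, which took no part in them. Replicate 1 alone gave 379 pairs and replicate 2 alone 384, and 60 had the same ends (15.8% and 15.6% of the calls). Of 23 pairs called and uncrossed in replicate 1, 12 (52.2%, exact interval 30.6 to 73.2%) had 3 or more lengths at both edges in replicate 2. No full-length alignment crossed 21 of the 23 there, and the other 2 had 3 crossing alignments in sum. Of 22 pairs called and uncrossed in replicate 2, 11 (50.0%) had 3 or more lengths at both edges in replicate 1, and 20 were uncrossed there. The flank expectation of these pairs in the other library was not worked out, so a count of 0 there may reflect low depth. In the summed calls the median expectation of uncrossed pairs was 7.2. Of the pairs called and crossed, 81 of 356 (22.8%) from replicate 1 and 58 of 362 (16.0%) from replicate 2 had 3 or more lengths in the other library. In all, 24.5% of the calls from replicate 1 and 18.0% of those from replicate 2 had this. Uncrossed pairs of the summed calls rested on a median of 17 trimmed reads over both edges, against 12 in crossed pairs. Their median was 4 lengths at each edge, against 3. More reads make 3 lengths easier to reach, and the part of this in the unlike shares was not tested. In the summed calls 19 of 402 pairs (4.73%) reached 3 lengths at both edges in each library, 11 of 51 uncrossed and 8 of 351 crossed, and at least 1 read lay at both edges in each library for 45 uncrossed and 287 crossed pairs.

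Around the limits of the rule, 7 pairs had their edges 20 nt apart and 11 had them 21 nt apart. Asking for 2 lengths in place of 3 gave 2756 pairs, and 314 of the 402 members had exactly 3 lengths at 1 edge or both.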

How the data were processed

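Per the deposited readme, the authors aligned 35 nt reads, using SOAP of a version that is not given in the sources used here, against the unmasked Chlamydomonas assembly version 3.1 of 1266 scaffolds, allowing up to 2 mismatches and no indels, then trimmed leftover reads base by base at either end to as short as 21 nt until they matched perfectly. What they deposited is a table of raw counts by start position and alignment length, for uniquely aligned reads only, without strand, gene or sequence. Repeats and near-identical copies give no unique alignments. No genome of that version was used here, so no sequence, gene or reading frame is given.

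Both libraries were summed. A pair's window is that of its right edge. Crossing was counted in 35 nt alignments with 8 nt on each side of the gap. Flanks are the full-length alignments ending in the 35 nt up to the right edge or starting in the 35 nt from the left edge. Their mean rate, times the start positions from which a read can cross, is the expectation. Edge calling and the binomial test were tested on simulated data. Software was Python 3.11.15, SciPy 1.17.1 and edgeR 4.0.16 (TMM factors, an alternative). Pairs named were the 10 with most trimmed reads, the 3 most crossed, the 3 of lowest p, the 3 densest stretches of 20 kb and the largest at gaps of 0, 1, 2, 3, 6, 9 and 12 nt; others were picked after their values were seen. The members, rules and alternatives were chosen with earlier results of these data known.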

Additional observations from a re-analysis of the deposited data

How the results depend on the processing

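The count of pairs differing between libraries was 0 in all 14 alternatives, which says little of its stability, since 283 of the 402 pairs had too few reads to pass in the test as reported. The number of pairs moved from 402 to 102 with 4 or more lengths at an edge, 15 with 6, 52 with at least 10 trimmed reads at each edge, 68 in windows of 50 to under 1000 reads, 15125 with no limit on window reads, and 266 for edges that were each other's nearest. The share of uncrossed pairs moved from 12.7% to 17.6%, 46.7%, 30.8%, 55.9%, 0.443% and 16.9% under the same settings, and to 6.72% when covering both edge bases was enough. The median crossing rate moved from 99.6% of the flanks to 64.7% with 6 lengths, 65.7% with 10 reads, 0% in windows of 50 to under 1000 reads, 114.5% for edges at most 10 nt apart and 122.9% when covering both edge bases was enough. The share of pairs with 3 lengths in each library moved from 4.73% to 19.6% with 4 lengths, 73.3% with 6 and 30.8% with 10 reads. Leaving out 1 library gave 379 to 384 pairs, 5.73 to 6.07% uncrossed and a median crossing rate of 148.8 to 149.1%. Windows in range then hold deeper regions, since their limits stay at 50 and 3000 reads. The share with 3 lengths in each library was then 18.0 to 24.5%. The call itself sets 3 lengths in the library used, so only the library left out is free, and the share is not comparable with 4.73%. The number of pairs was 334 with windows shifted by 500 nt, 312 with alignments of 30 nt or less, 274 for edges at most 10 nt apart and 488 for edges up to 30 nt apart. Shifted windows and alignments of 30 nt or less left the share uncrossed and the median crossing rate inside their intervals. The share with 3 lengths in each library also stayed inside its interval there. A limit of 34 nt in place of 32 changed no value, which says nothing of stability. A read that matches perfectly without 1 or 2 end bases already passes at full length, where up to 2 mismatches were accepted. Crossing has no value for edges over 20 nt apart, as a 35 nt read cannot hold 8 nt on each side of them. Over their 13 alternatives the share of adjacent edges ran from 11.7 to 25.9%. The share of gaps divisible by 3, here with gaps of 0 counted, ran from 34.6 to 53.3%, against 37.8% (152 of 402) in the main setting. It is not the share among gaps above 0 given earlier. Depth limits the 21 uncrossed pairs with an expectation under 6. The test between libraries needs both and has no value with 1 left out. No paired analysis was possible because the 2 libraries form a single group.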
